A study of Mus musculus with 6 samples.

Results

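The 77 mitochondrial ribosomal protein genes described here were the rows of the count table whose symbol was Mrpl or Mrps, a number and at most 1 further letter, out of 20654 genes in all. Of these, 48 carried a large subunit symbol (Mrpl) and 29 a small subunit symbol (Mrps). The libraries were made from mouse muscle satellite cells (MuSCs), the Pax7-expressing stem cells of skeletal muscle, on a C57BL/6 background. The cells were sorted from uninjured limb muscle as VCAM1+, CD31-, CD45- and Sca1- and cultured on Matrigel for 3 days in growth medium with basic fibroblast growth factor. Total RNA of 3 wild type and 3 Piezo1 cKO cultures was then sequenced with unique molecular identifiers (UMIs). Piezo1 cKO cells carried Piezo1 flox/flox with Pax7 CreERT2/+, so that deletion of Piezo1, which encodes a mechanosensitive cation channel, was limited to Pax7-expressing cells and needed tamoxifen. The labels name the controls as wild type, and the study describes its RNA-seq controls as Pax7 CreERT2/+, so that the Cre allele was shared by both groups. The study's methods give daily tamoxifen injections of the mice for its ex vivo work. In addition, the medium of both groups contained 4-hydroxytamoxifen. The labels do not say whether the 3 libraries of a group came from separate mice, so p-values measure only the spread between these libraries.

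The mitochondrial ribosome is the machine inside mitochondria that makes the few proteins encoded by mitochondrial DNA, all of them inner membrane subunits of oxidative phosphorylation. Its RNAs come from mitochondrial DNA, but every one of its proteins is encoded in the nucleus, made on cytosolic ribosomes and imported. The small subunit binds and decodes the mRNA, and the large subunit joins the amino acids and passes the new chain through an exit tunnel towards the membrane.

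In these cells no mitochondrial ribosomal protein gene passed the test between the genotypes. Levels in Piezo1 cKO were slightly below wild type in more members than above it, with a median log2 fold change of −0.06 over 48 large subunit genes and −0.09 over the 27 small subunit genes that could be tested, against 0.00 over all 8551 genes tested. With library totals alone, which shifted the median of all genes to 0.08, 37 members were below 0 and 38 above, with medians of 0.02 and −0.01. The interval of every tested member lay within a 2-fold difference. The member with the smallest p was Mrps5, at 155 ± 14.9 CPM (counts scaled to a common library size of 1000000) in wild type and 111 ± 17.2 CPM in Piezo1 cKO (mean ± SD, n = 3 each).

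Total UMI counts were 740936, 931168 and 891531 in wild type 1 to 3, and 810096, 726378 and 769295 in Piezo1 cKO 1 to 3. Between 14432 and 14786 genes had a count in each library. A count of 3, taken as the limit that a count of 0 allows, corresponded to 3.22 to 4.13 CPM of a library's total and covers counting error only. All CPM values given for genes were scaled with the trimmed mean of M-values (TMM), a normalisation that sets most genes to no difference. Within each group the libraries differed by more than sampling noise, with a chi-square per degree of freedom of 1.64 to 2.61 between pairs, so all 6 were counted as separate libraries.

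Piezo1 itself had 11, 5 and 6 counts in the wild type libraries and 7, 12 and 9 counts in the Piezo1 cKO libraries. These counts were not lower in Piezo1 cKO, and the gene was too sparsely counted to be tested. Because counts were summed over the whole gene, shortened transcripts of a recombined allele are not told apart from full-length ones. The Piezo1 counts are therefore no check of the labels, from which the directions given here are taken. The sorted cell type was present by its markers: all 8 satellite cell and myoblast markers were detected, and Myod1, a myogenic transcription factor, ranged from 1087 to 1569 CPM across the libraries. Markers of cells that the sort should remove were also summed. The 4 endothelial markers in the table summed to 11.5, 5.58 and 1.18 CPM in wild type 1 to 3 and to 7.60, 5.28 and 18.6 CPM in Piezo1 cKO 1 to 3. The 4 haematopoietic markers in the table summed to 33.1, 45.7 and 33.1 CPM in wild type and to 26.6, 30.4 and 27.8 CPM in Piezo1 cKO. The 4 smooth muscle and pericyte markers, led by Cspg4, summed to 44.6, 31.2 and 42.5 CPM in wild type and to 54.5, 58.1 and 83.5 CPM in Piezo1 cKO. The 6 fibro-adipogenic markers in the table, whose cells carry the Sca1 that the sort selects against, summed to 193, 199 and 350 CPM in wild type and to 284, 308 and 268 CPM in Piezo1 cKO, led by Col3a1 and with Pi16 at 0. The haematopoietic and the smooth muscle sums did not overlap between groups, the endothelial and fibro-adipogenic sums did, and the part of these cells in the values below was not tested.

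Where these genes lie in the genome was read from the GENCODE annotation of GRCm38, in which all 77 symbols matched. They were spread over 17 chromosomes, with at most 11 on 1 chromosome (chromosome 11). A protein-coding gene on the opposite strand began within 1000 bases, head to head, for 26 of the 77 members (33.8%), compared with 16.6% of the 8040 protein-coding genes tested and 9.53% of all 21951 annotated protein-coding genes. Mrps11 and Mrpl46 formed such a head-to-head pair with each other, a small and a large subunit gene sharing a start region. Mrps12 lay 172 bases from Sars2, the mitochondrial seryl-tRNA synthetase, Mrpl32 lay 75 bases from the proteasome gene Psma2, Mrpl49 lay 59 bases from Fau, which encodes a cytosolic ribosomal protein, and the heads of Mrpl36 and the complex I gene Ndufs6 overlapped.

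Promoter sequences, from RefSeq on GRCm38.p6 and covering 250 bases before to 50 after the start, were found for 68 members as 74 windows. Each window was searched on both strands for the exact letters of 4 motifs often met in promoters of mitochondrial and ribosomal genes. The ETS core CCGGAAG was present in 33.8% of member windows, in 20.3% of windows of all genes tested and in 8.86% of all windows. The NRF1 core GCATGCGC was present in 10.8%, 5.96% and 2.71% of these sets. For the YY1 core AAGATGGCG the shares were 10.8%, 3.64% and 1.40%, and for the E-box CACGTG they were 9.46%, 11.0% and 7.15%. At least 1 of the 4 was found in 37 members, 2 or more kinds in 9, and none in 31. In the cytosolic ribosomal protein genes the ETS core was found in 35.6% of windows. A match describes letters only and says nothing of binding in these cells.

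The 100 bases from 80 before to 20 after the start are printed for 4 members, chosen after the matches were seen: Mrpl22 and Mrps18a hold more than 1 kind of motif, and Mrps12 and Mrps22 are the small subunit genes with an ETS match close to the start among those with the smallest p. Capitals mark the matches. Coordinates are GRCm38.p6, and each sequence runs 5′ to 3′ on the strand of the gene.
Mrpl22, chr11:58171584-58171683, plus strand: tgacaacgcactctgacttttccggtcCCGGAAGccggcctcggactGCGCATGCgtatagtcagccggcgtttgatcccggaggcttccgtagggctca
Mrps18a, chr17:46110924-46111023, plus strand: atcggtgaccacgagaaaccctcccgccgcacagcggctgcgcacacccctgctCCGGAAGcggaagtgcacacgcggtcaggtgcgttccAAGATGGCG
Mrps12, chr7:28741802-28741901, minus strand: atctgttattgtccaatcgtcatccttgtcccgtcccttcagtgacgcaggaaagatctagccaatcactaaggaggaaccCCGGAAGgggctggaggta
Mrps22, chr9:98601660-98601759, minus strand: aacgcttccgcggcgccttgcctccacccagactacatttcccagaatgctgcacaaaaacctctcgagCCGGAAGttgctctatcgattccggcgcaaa
In Mrpl22 the ETS core stands upstream of an NRF1 core read on the opposite strand (GCGCATGC). In Mrps18a the ETS core precedes a YY1 core that lies just inside the transcript. Of these 4 genes, Mrpl22 had a log2 fold change of 0.06, Mrps18a of −0.09, Mrps12 of −0.29 and Mrps22 of −0.31, and none passed the test. The sign of Mrpl22 was not stable, being −0.05 with cyclic loess and −0.31 without Piezo1 cKO 2.

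The comparison between genotypes was first made over the whole table. With edgeR's quasi-likelihood test and Benjamini-Hochberg adjustment, 67 of 8551 genes tested (0.784%) had an adjusted p under 0.05, and none of the 75 members tested was among them. DESeq2 called 28 of the 4694 genes to which it gave an adjusted p (0.597%) and none of the members. At an unadjusted p under 0.05, edgeR gave 3 members, all lower in Piezo1 cKO (Mrps5, Mrpl19 and Mrpl18). DESeq2 gave 1 at that threshold, beside 2.99% of its 19247 genes with a p, which were not filtered for low counts. The background shares in edgeR at that threshold were 5.78% of genes lower and 6.14% higher, so 3 of 75 was a smaller share than that of all genes. A log2 fold change below 0 was found in 46 members and above 0 in 29, that is 61.3% below, where the share over all genes was 49.8%. Library totals shifted all genes upwards together, to a median of 0.0781, and gave 37 and 38. Relative to the median of all genes, the large and small subunit medians were −0.058 and −0.092 with library totals and −0.061 and −0.092 with TMM.

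The plot of fold changes shows how closely the members sat around 0. They ranged from −0.49 for Mrps5 to 0.29 for Mrps36. The 95% intervals reached a median of 0.30 to either side on the log2 scale, compared with 0.44 over all genes. They lay within a 1.5-fold difference for 62 of the 75 members (43 of 48 large and 19 of 27 small), or 82.7%, compared with 43.2% of all genes tested. Narrow intervals were not particular to the members. The shares were 87.2% of cytosolic ribosomal protein genes and 86.4% of nuclear oxidative phosphorylation genes, with a median reach of 0.28 in both. The median SD of the members within a group was 0.15 on the log2 CPM scale, against 0.21 in the 6675 genes of the same range of counts. Only the ends of that range were matched (mean counts of 18.7 to 387), not the distribution of counts within it.

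**Figure D1:**
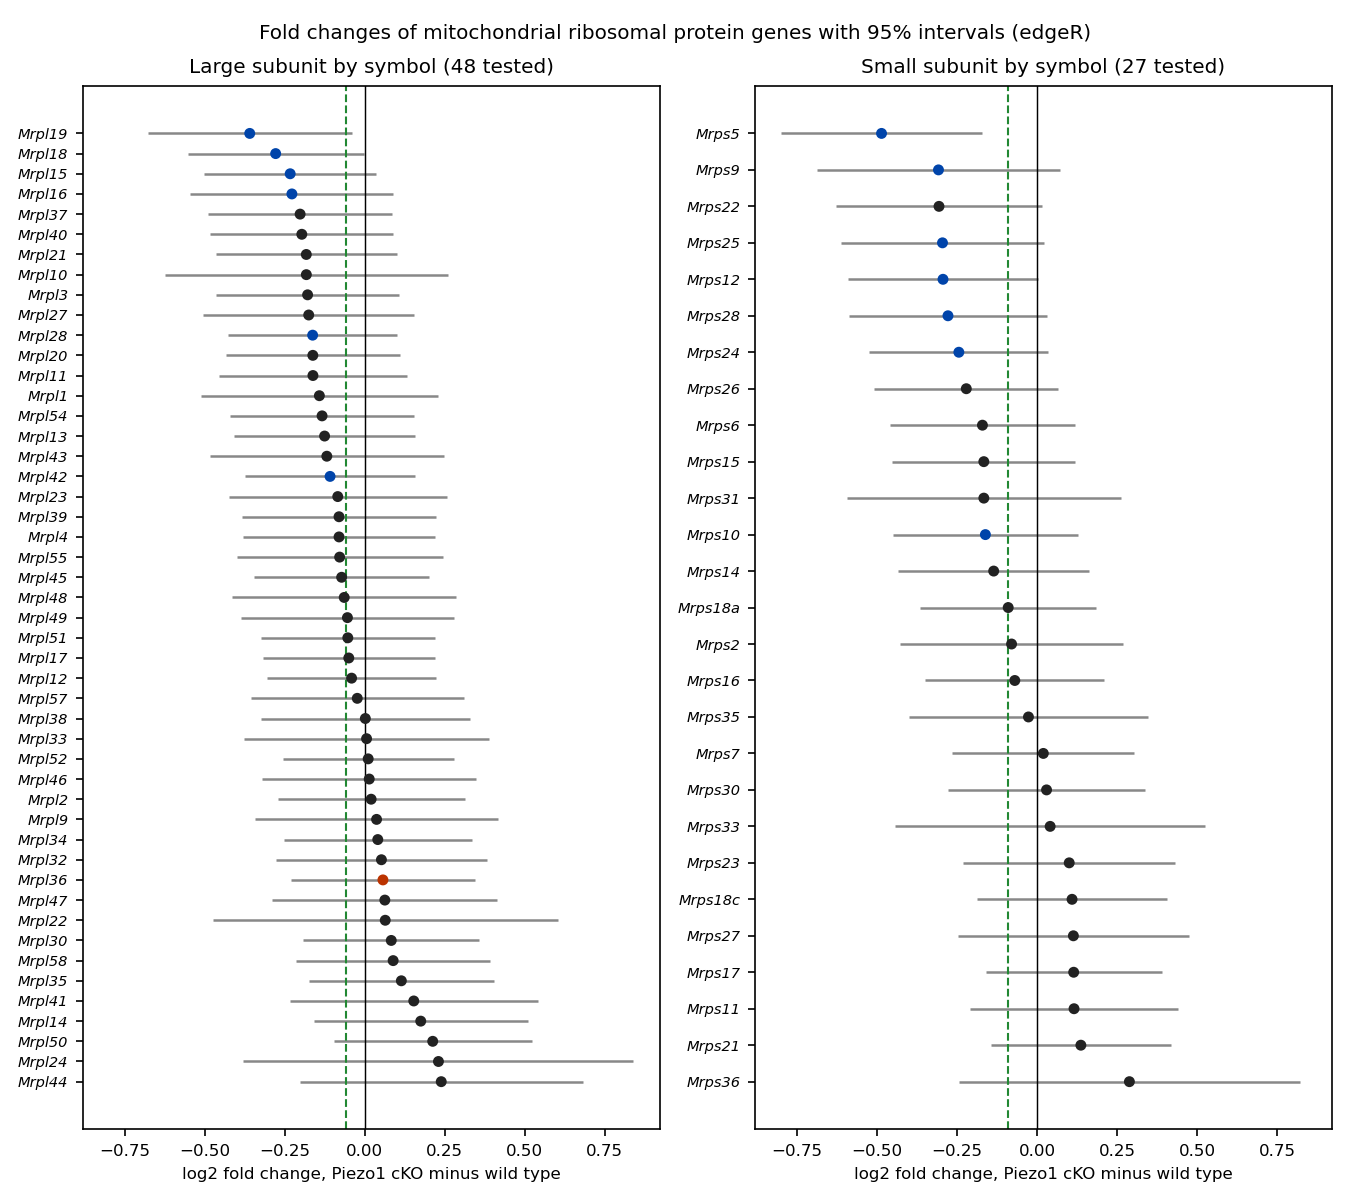
Log2 fold change (horizontal axis, Piezo1 cKO minus wild type, edgeR) of each of the 48 large (left) and 27 small (right) subunit genes tested, ordered by value, with grey bars for 95% intervals and a dashed line at the median of the panel. Blue points are the 13 genes with every Piezo1 cKO library below every wild type library and the red point, Mrpl36, is the opposite; the points run from −0.49 to 0.29, and 72 of the 75 intervals include 0.

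In 13 members, every Piezo1 cKO library was below every wild type library (17.3% of 75), and in 1 member, Mrpl36, every Piezo1 cKO library was above. The shares over all genes tested were 8.31% lower and 8.20% higher, and in genes of the members' range of counts 7.85% were lower. The 13 were 6 large subunit genes (Mrpl15, Mrpl16, Mrpl18, Mrpl19, Mrpl28 and Mrpl42) and 7 small subunit genes (Mrps5, Mrps9, Mrps10, Mrps12, Mrps24, Mrps25 and Mrps28). These counts depended on the scaling. With library totals alone in place of TMM, 6 of 75 were lower, beside 4.97% of all genes. With the same scaling 4 of 75 were higher, beside 1014 of all genes tested.

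Among the small subunit genes, Mrps5 encodes the counterpart of the bacterial protein S5, which lies where the mRNA enters the ribosome. It is on chr2:127587222-127606829, plus strand. Mrps5 measured 164, 164 and 138 CPM in wild type 1 to 3 and 118, 91.1 and 123 CPM in Piezo1 cKO 1 to 3. Every Piezo1 cKO library was below every wild type library, with Piezo1 cKO 2 lowest. The log2 fold change was −0.49 (SE 0.16, 95% interval −0.80 to −0.17), with an unadjusted p of 0.00274 and an adjusted p of 0.137 in edgeR and an adjusted p of 0.433 in DESeq2. The head-to-head neighbour of Mrps5 is the zinc finger gene Zfp661, 128 bases away.

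Mrps12, the counterpart of bacterial S12 at the decoding centre, where codon and anticodon are matched, measured 165, 153 and 190 CPM in wild type and 139, 144 and 131 CPM in Piezo1 cKO. The groups did not overlap, with wild type 2 and Piezo1 cKO 2 the closest libraries. Its log2 fold change was −0.29 (SE 0.15, adjusted p = 0.426 in edgeR). Mrps24, the counterpart of bacterial S3, also at the mRNA entry, measured 226, 196 and 243 CPM in wild type and 171, 195 and 195 CPM in Piezo1 cKO. Here the groups came within 1 CPM of each other and the log2 fold change was −0.24. Mrps28, which holds the place of bacterial S1, measured 163, 145 and 137 CPM in wild type and 108, 132 and 126 CPM in Piezo1 cKO, without overlap, for a log2 fold change of −0.28.

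Mrps22 and Mrps25 encode small subunit proteins with no bacterial counterpart. Mrps25 measured 135, 137 and 126 CPM in wild type and 103, 103 and 119 CPM in Piezo1 cKO, without overlap. Mrps22 measured 132, 137 and 110 CPM in wild type and 96.3, 111 and 99.4 CPM in Piezo1 cKO, where wild type 3 lay inside the Piezo1 cKO range. Their log2 fold changes were −0.30 and −0.31, and the adjusted p in edgeR was 0.456 for Mrps25 and 0.448 for Mrps22. Mrps9 and Mrps10, named here only because they belong to the 13 without overlap, had log2 fold changes of −0.31 and −0.16.

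The remaining tested small subunit genes lay from −0.22 (Mrps26) to 0.29 (Mrps36), including Mrps15 and Mrps31 at −0.17 and Mrps14 at −0.14, named after their values were seen. Mrps6, the member with the most counts, had 484, 413 and 355 counts in wild type and 384, 342 and 344 in Piezo1 cKO. Wild type 1 stood far above the other libraries at 696 CPM, and the groups overlapped. The log2 fold change of Mrps6 was −0.17, and 0.08 without wild type 1. Mrps17 measured 221, 202 and 205 CPM in wild type and 209, 247 and 224 CPM in Piezo1 cKO, with overlap, for a log2 fold change of 0.11.

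Mammals have a family of 3 genes, Mrps18a, Mrps18b and Mrps18c, that descend from the gene of bacterial S18, and the Mrps18a protein sits in the large subunit despite its symbol. Mrps18a measured 224, 214 and 213 CPM in wild type and 217, 199 and 195 CPM in Piezo1 cKO (log2 fold change −0.09). Mrps18c measured 151, 138 and 138 CPM in wild type and 153, 143 and 164 CPM in Piezo1 cKO (0.11). Both overlapped between groups. Mrps18b had 0, 3 and 2 counts in wild type and 3, 2 and 0 in Piezo1 cKO, at or under the limit of 3 counts in every library, so no fold is given. Mrps34, a small subunit protein particular to mitochondria, had 5, 3 and 3 counts in wild type and 0, 3 and 1 in Piezo1 cKO and was likewise not tested. Mrps30, which structures place in the large subunit, had a log2 fold change of 0.03 (−0.05 without Piezo1 cKO 1 and −0.01 without wild type 3), and Mrps36, a subunit of the 2-oxoglutarate dehydrogenase complex that structures do not place in the ribosome, had 0.29 on 20 to 30 counts per library.

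**Figure D2:**
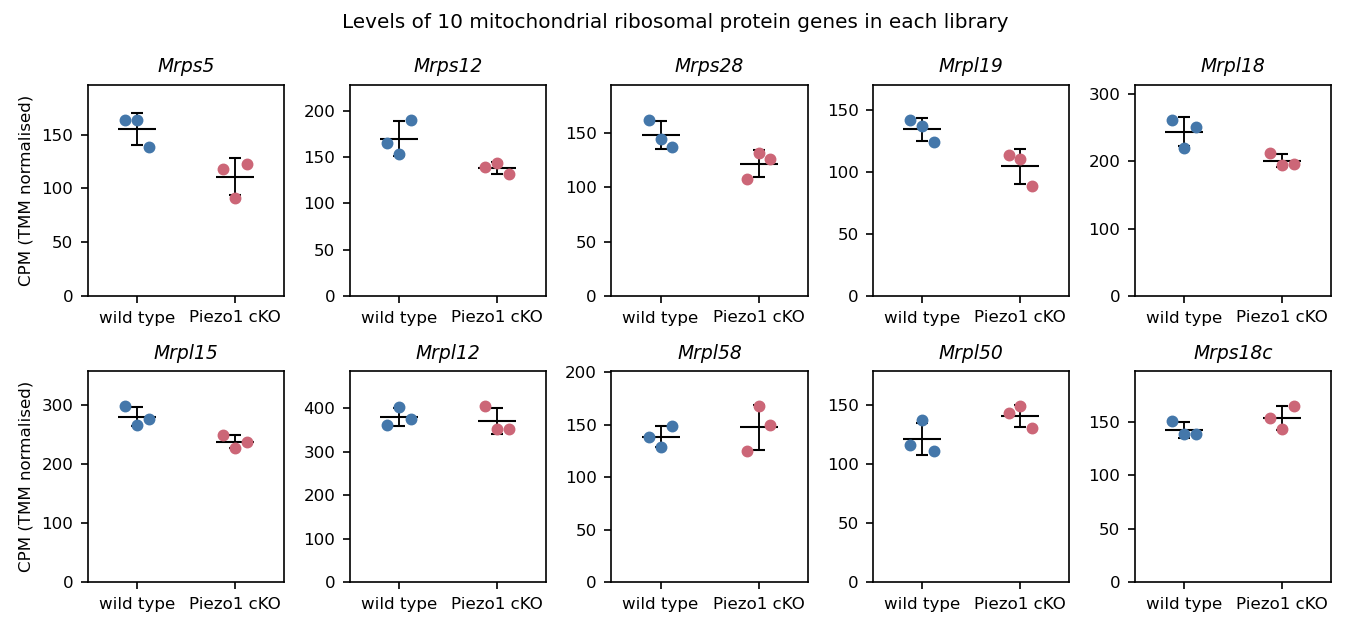
TMM-normalised CPM (vertical axes, each starting at 0) of 10 members in the 3 wild type (blue) and 3 Piezo1 cKO (red) libraries, with the mean as a horizontal line and the SD as a bar. In the upper row and in Mrpl15 the Piezo1 cKO points lie below all wild type points, while in Mrpl12, Mrpl58, Mrpl50 and Mrps18c the groups overlap.

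Among the large subunit genes, Mrpl19 and Mrpl18, both with bacterial counterparts, had the smallest p. Mrpl19 measured 142, 137 and 124 CPM in wild type and 114, 111 and 88.8 CPM in Piezo1 cKO. The groups did not overlap, with Piezo1 cKO 3 lowest, and the log2 fold change was −0.36 (SE 0.16, unadjusted p = 0.0280 and adjusted p = 0.344 in edgeR). Mrpl18, part of the central protuberance, measured 262, 220 and 250 CPM in wild type and 212, 194 and 196 CPM in Piezo1 cKO. Again the groups did not overlap, and the log2 fold change was −0.28 (SE 0.14, adjusted p = 0.416 in edgeR). Mrpl15 measured 298, 267 and 276 CPM in wild type and 250, 227 and 237 CPM in Piezo1 cKO, and Mrpl16, whose bacterial counterpart lies beside the peptidyl transferase centre, measured 119, 144 and 122 CPM and 115, 112 and 102 CPM. Neither overlapped, and both had a log2 fold change of −0.23. Without wild type 2, that of Mrpl16 was −0.13.

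The next 4 large subunit genes by p all overlapped between groups. Mrpl37 measured 204, 204 and 174 CPM in wild type and 188, 155 and 163 CPM in Piezo1 cKO, and Mrpl40 measured 178, 209 and 187 CPM and 183, 164 and 155 CPM. Mrpl21 had 229, 185 and 201 CPM in wild type and 188, 170 and 182 CPM in Piezo1 cKO. Their log2 fold changes were −0.20, −0.20 and −0.18. That of Mrpl40 was −0.12 without wild type 2, and that of Mrpl21 was −0.10 without wild type 1. Mrpl50 went the other way in its values, with 116, 137 and 111 CPM in wild type and 143, 149 and 131 CPM in Piezo1 cKO (log2 fold change 0.21, adjusted p = 0.627 in edgeR).

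Mrpl10, Mrpl11 and Mrpl12 form the base and the flexible stalk that bring translation factors to the ribosome. Mrpl12, with the most counts of the large subunit genes, measured 362, 403 and 375 CPM in wild type and 404, 353 and 352 CPM in Piezo1 cKO. The highest and the lowest of these were Piezo1 cKO libraries, and the log2 fold change was −0.04 (95% interval −0.30 to 0.22). This sign was not stable, being 0.03 with library totals and 0.07 with cyclic loess. Mrpl11 ranged from 138 to 194 CPM and Mrpl10 from 40.6 to 66.2 CPM over the 6 libraries, both with overlap, at log2 fold changes of −0.16 and −0.18.

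Mrpl22, Mrpl23, Mrpl24, Mrpl44 and Mrpl45 line or surround the exit tunnel, and Mrpl45 ties the ribosome to the inner membrane. Mrpl45 measured 229, 265 and 224 CPM in wild type and 227, 217 and 241 CPM in Piezo1 cKO, with a log2 fold change of −0.07 that became 0.0028 with library totals and 0.0012 with cyclic loess. Mrpl22 had 25, 28 and 27 counts in wild type and 20, 38 and 21 in Piezo1 cKO. Its log2 fold change of 0.06 rested on Piezo1 cKO 2, without which it was −0.31. Mrpl44 had 30, 40 and 46 counts in wild type and 41, 44 and 44 in Piezo1 cKO (log2 fold change 0.24), and Mrpl24 had 15 to 20 counts in every library (0.23). The groups overlapped in all of these. Mrpl58, a peptidyl-tRNA hydrolase that became part of the large subunit and frees chains from stalled ribosomes, measured 138, 129 and 149 CPM in wild type and 125, 168 and 150 CPM in Piezo1 cKO (0.09, and −0.01 without Piezo1 cKO 2).

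Mrpl23 lies at chr7:142532686-142540747, plus strand, 34781 bases from H19, an imprinted long non-coding RNA at chr7:142575529-142578143 on the minus strand. H19 measured 145, 80.3 and 145 CPM in wild type and 283, 264 and 216 CPM in Piezo1 cKO, and it rose (log2 fold change 1.05, SE 0.17, adjusted p = 0.000387 in edgeR). Mrpl23 measured 89.2, 91.5 and 115 CPM in wild type and 87.5, 100 and 91.4 CPM in Piezo1 cKO, with overlap. Its log2 fold change was −0.08, with a 95% interval of −0.43 to 0.26, and 0.04 without wild type 3. The pseudogene Mrpl23-ps1 has a row of its own, with 28, 66 and 73 counts in wild type and 53, 69 and 54 in Piezo1 cKO. How reads shared by near-identical copies were assigned is not given in the sources used here, so the values of Mrpl23 and of the other members with a pseudogene row (Mrpl27, Mrpl48 and Mrps36) are uncertain to that extent.

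Of the remaining genes with many counts, Mrpl28 measured 342, 319 and 298 CPM in wild type and 280, 287 and 289 CPM in Piezo1 cKO, and Mrpl42, a protein particular to mitochondria, measured 308, 302 and 335 CPM and 300, 285 and 292 CPM. Both were without overlap by small gaps, at log2 fold changes of −0.16 and −0.11. With TMM, Mrpl36 was the single member with every Piezo1 cKO library above. It measured 173, 164 and 165 CPM in wild type and 174, 173 and 175 CPM in Piezo1 cKO, a log2 fold change of 0.06. With DESeq2's size factors in edgeR no member stood above without overlap, and with library totals 4 did, beside 698 and 1014 of the 8551 genes tested. Without wild type 1 there were 7, beside 1214 of all genes tested, and without Piezo1 cKO 1 there were 6, beside 1240. Leaving out each other library gave 2 to 4, beside 1048 to 1193. With fewer libraries, more genes of the whole table were without overlap too.

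The subunits were then compared with each other. Large subunit genes were below 0 in 29 of 48 and small subunit genes in 17 of 27. Moving Mrps18a and Mrps30 to the large subunit, as in structures, and leaving out Mrps36 gave medians of −0.06 and −0.15. A median per library was taken over the genes of each subunit, after the average of a gene over all 6 libraries had been subtracted from its log2 CPM. For the small subunit it was 0.035, 0.027 and 0.031 in wild type and −0.057, −0.037 and −0.060 in Piezo1 cKO, without overlap. The separation depended on the scaling: as a share of library totals the small subunit genes took 0.409%, 0.391% and 0.394% in wild type and 0.379%, 0.403% and 0.385% in Piezo1 cKO, with overlap. For the large subunit it was 0.019, −0.020 and 0.063 in wild type and −0.048, 0.018 and −0.023 in Piezo1 cKO, with overlap. The ratio of large to small subunit counts does not depend on scaling. By symbol it was 1.81, 1.87 and 1.91 in wild type (1.86 ± 0.0526, mean ± SD, n = 3). In Piezo1 cKO it was 1.87, 1.95 and 1.91 (1.91 ± 0.0414, n = 3), so the groups overlapped. By structure it was 2.066, 2.161 and 2.185 in wild type and 2.186, 2.241 and 2.194 in Piezo1 cKO. These did not overlap, with wild type 3 and Piezo1 cKO 1 the closest libraries, and the difference was not tested.

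**Figure D3:**
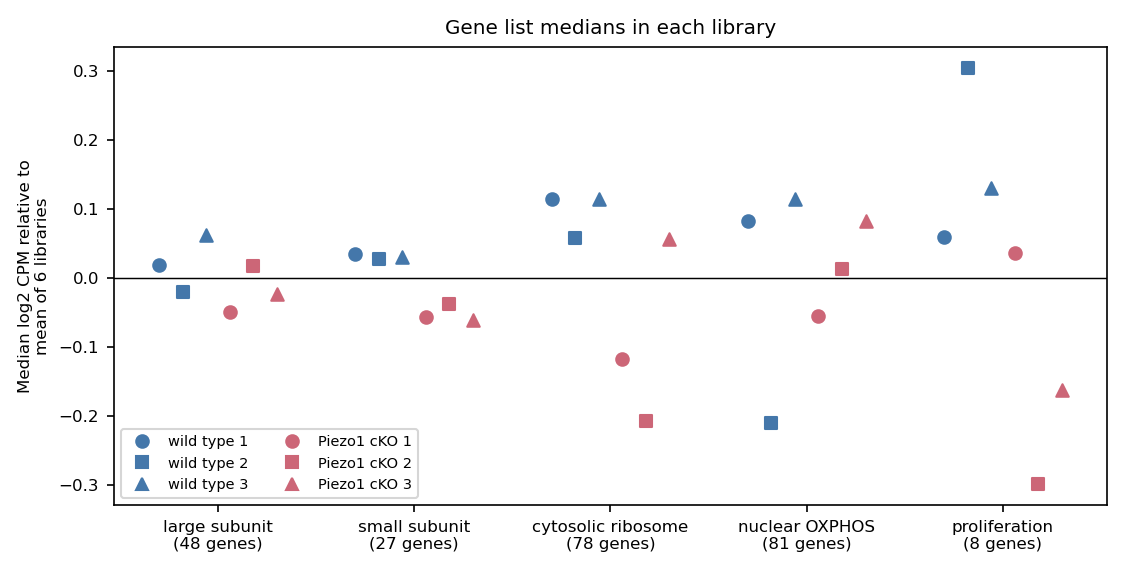
Median TMM-scaled log2 CPM of each gene list by library (vertical axis, with the average of all 6 libraries at 0) for wild type (blue) and Piezo1 cKO (red), with a marker shape for each library number. The small subunit points lie above 0 in wild type and below 0 in Piezo1 cKO, a separation not found in shares of library totals. The cytosolic ribosome points of the groups do not overlap either, with wild type 2 at 0.0585 and Piezo1 cKO 3 at 0.0569 the closest. Nor do the proliferation points, which run from −0.30 to 0.30, with wild type 1 at 0.0604 and Piezo1 cKO 1 at 0.0373 the closest. The large subunit and oxidative phosphorylation points of the groups overlap.

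As a share of all counts, the 77 genes took 1.15%, 1.12% and 1.15% in wild type 1 to 3 and 1.09%, 1.19% and 1.12% in Piezo1 cKO 1 to 3. The highest and the lowest share were both in Piezo1 cKO. After TMM scaling their summed level was 11990 ± 300.1 CPM in wild type and 11317 ± 150.2 CPM in Piezo1 cKO (n = 3 each), without overlap, a ratio of 0.944. All genes of the table, summed in the same way, had a ratio of 0.952, also without overlap. The lower sum of the members is therefore close to that of the whole table under this scaling. In bulk libraries such as these, fewer cells of a type and less RNA per cell cannot be told apart.

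Members were also split by origin. The 47 tested genes with a bacterial counterpart had a median log2 fold change of −0.08, and 11 of them were lower without overlap, where the share over all genes tested was 8.31%. The 27 tested genes particular to mitochondria had a median of −0.05, and 2 were lower without overlap. Whether these sets differ was not tested. Among the 24 tested members with a head-to-head neighbour, 2 were lower without overlap, and among the other 51 there were 11, beside the same 8.31% of all genes.

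The 5 further mitoribosome proteins that carry other symbols were all tested, and none was called. Dap3, a GTP-binding protein of the small subunit, measured 203, 205 and 200 CPM in wild type and 172, 177 and 180 CPM in Piezo1 cKO, without overlap and with little spread (log2 fold change −0.20, adjusted p = 0.616 in edgeR). Ptcd3, an RNA-binding protein of the small subunit, measured 51.8, 54.7 and 59.0 CPM in wild type and 35.5, 39.6 and 47.7 CPM in Piezo1 cKO, also without overlap (−0.43, adjusted p = 0.449 in edgeR). Chchd1 and Aurkaip1 overlapped between groups at −0.18 and −0.11, as did Gadd45gip1 at 0.08.

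Factors that build and run the mitochondrial ribosome showed no common direction, and none was called. Of 25 assembly factors, 21 were tested, with 9 below 0, 12 above and a median of 0.05. Eral1, which binds the small subunit RNA, and Mtg2, a GTPase of large subunit assembly, had log2 fold changes of −0.40 and −0.37, while Mterf4, which guides an RNA methyltransferase to the large subunit, had 0.39. Of the translation factors, 13 were tested, with a median of 0.01. The release factor gene Mtrf1 had −0.55 on low counts and Gfm2, which helps to recycle ribosomes, had 0.39. Of 8 genes for replication and transcription of mitochondrial DNA, 7 were tested, with a median of −0.06, and the helicase gene Twnk had 0.42. The genes of mitochondrial DNA itself were not analysed here.

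The cytosolic ribosome and oxidative phosphorylation served as the nearest comparisons. Of 82 cytosolic ribosomal protein genes, 78 were tested, with 73 below 0, a median log2 fold change of −0.17, and 26 lower without overlap (8.31% over all genes). In edgeR 12 were lower at an unadjusted p under 0.05 (5.78% over all genes) and none was called. DESeq2 gave 23 at an unadjusted p under 0.05, beside 2.99% over all its genes, which include low-count genes that edgeR's filter removed. It called 1. That gene was Rpl5, which had −0.45 (adjusted p = 0.0197 in DESeq2, 0.107 in edgeR). The per-library medians of the cytosolic list were 0.114, 0.058 and 0.115 in wild type and −0.118, −0.207 and 0.057 in Piezo1 cKO, so that Piezo1 cKO 3 stood at the level of wild type 2. Of 86 nuclear genes of oxidative phosphorylation, 81 were tested, with 36 below 0, 45 above, a median of 0.02 and none called. The mitochondrial ribosomal protein genes, at −0.07 over 75 genes, lay between these medians. The differences between the lists were not tested.

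Other gene lists were measured in the same libraries. All 8 tested genes of muscle differentiation were higher in every Piezo1 cKO library than in every wild type library (8.20% over all genes tested), with a median log2 fold change of 2.05 and 1 called in edgeR (Tnni2, a fast muscle troponin, which rose with 2.16 and had no adjusted p in DESeq2). DESeq2 gave 10 genes of this list an unadjusted p under 0.05 (2.99% over all genes in DESeq2, low-count genes included) and called 1 other gene of it. The summed level of the 14 differentiation genes in the table was 377, 126 and 312 CPM in wild type and 625, 1842 and 888 CPM in Piezo1 cKO, with Acta1 the most abundant. All 8 proliferation genes had a log2 fold change below 0 (median −0.30, none called), and their per-library medians were 0.06, 0.30 and 0.13 in wild type and 0.04, −0.30 and −0.16 in Piezo1 cKO. Of the markers of fibro-adipogenic cells, Dcn, a matrix proteoglycan, fell (log2 fold change −2.17, adjusted p = 0.000387 in edgeR; DESeq2 gave an unadjusted p of 0.000100 and no adjusted p), while Col3a1, the most abundant of the list, had 0.41. The part of these groups in the values of the ribosomal protein genes was not tested.

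Finally, the low counts of a few members were set beside the annotation. The reverse transcription primers ended in a run of T and carried the UMI, so that counts come mostly from the 3′ end of a transcript. Exons of another gene covered more than 50% of the exonic bases among the last 300 of 5 members. These were Mrps34, Mrps18b, Mrpl24 and Mrps25 at 100% and Mrpl19 at 65.7%. The 3 members with the fewest counts over all 6 libraries, Mrps18b with 10, Mrps34 with 15 and Mrpl24 with 112, were among these 5. The other 72 members had 153 to 2322 counts, with a median of 698.

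**Figure D4:**
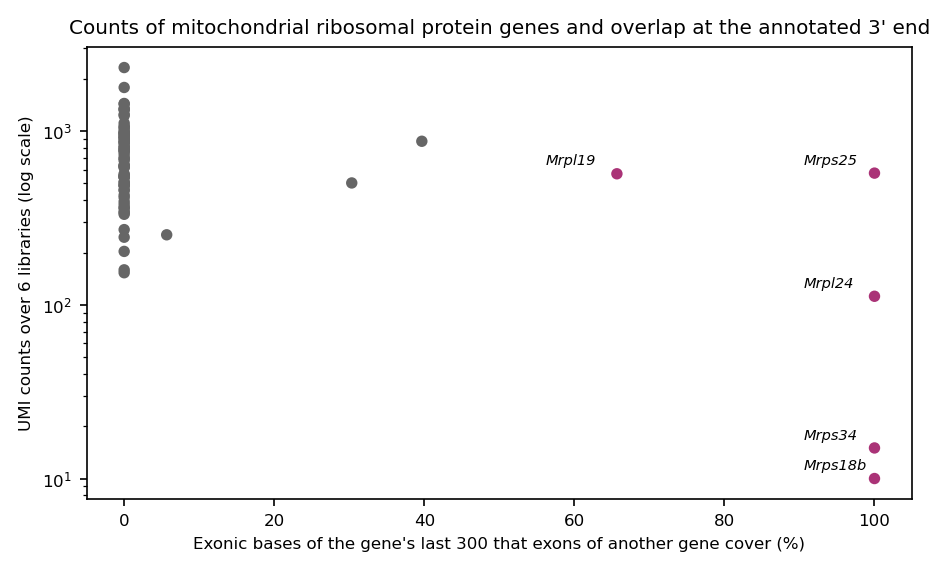
Total UMI counts over the 6 libraries (vertical axis, log scale) against the percent of the exonic bases among a gene's last 300 that exons of another gene cover (horizontal axis), 1 point per member. The 3 lowest points (10, 15 and 112 counts) are at 100%, where Mrps25, with 573 counts, also lies.

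The gene overlapping Mrps18b there was Gm16279 and that overlapping Mrps34 was Mapk8ip3, both on the opposite strand, with Nme3 on the same strand at Mrps34. The opposite-strand neighbours were Rrnad1 for Mrpl24, Nr2c2 for Mrps25 and Gcfc2 for Mrpl19. Whether counting used the strand is not given in the sources used here, so the values of these 5 genes are uncertain, and Mrps25 and Mrpl19 are among the 13 without overlap between groups. Over the 72 members not covered in this way, the median log2 fold change was −0.07 and 11 were lower without overlap, beside 8.31% of all genes.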

How the data were processed

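The deposited table held UMI counts per gene, one column per library. The authors mapped reads to GRCm38 with STAR 2.7.9a, annotated them with featureCounts 2.0.1 and counted UMIs with UMI-tools 1.1.1. The counts were not normalised. Genes were kept with edgeR's filter (minimum count 10), which left 8551, and 1407 genes had 0 counts in every library. The main test was edgeR 4.0.16 (R 4.3.3), quasi-likelihood with TMM, robust and without covariates, with Benjamini-Hochberg adjustment over all genes kept and a threshold of 0.05. The study's methods used DESeq2 at defaults, run here as an alternative (DESeq2 1.42.0), beside other scalings, filters, a replicate block and leaving out each library (limma 3.58.1 for cyclic loess). CPM use TMM library sizes over the genes kept. An exact two-sided permutation of 3 against 3 cannot go below p = 0.1 and was not used. The fit was tested on simulated data. Members, lists, motifs and tests were chosen with earlier results of these data known. Named members were the 8 large and 6 small subunit genes with the smallest p, the 3 with the most counts per subunit, those not kept, and genes chosen by role. Of each other list, called genes and up to 3 with the smallest p were eligible. Limits for head-to-head genes and 3′ overlap were set after the annotation was seen. Symbols were matched to GENCODE vM21 and RefSeq promoters.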

Additional observations from a re-analysis of the deposited data

How the results depend on the processing

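No member was called under any of the 14 fits, the smallest adjusted p being 0.0778 for Mrps5 without wild type 3. The count of all genes called, 67, was 28 with DESeq2, 32 with cyclic loess, 129 without a filter on low counts and 6 to 174 when each library was left out, with 6 without Piezo1 cKO 2 and 174 without Piezo1 cKO 1. Without wild type 1 it was 105, without wild type 3 it was 131 and without Piezo1 cKO 3 it was 29. Library totals alone gave 67 calls, 49 higher and 18 lower, where TMM gave 40 and 27.

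Library totals moved the median of all genes to 0.0781, that of large subunit genes from −0.0589 to 0.0197 and that of small subunit genes from −0.0898 to −0.0138. Relative to all genes these were −0.0584 and −0.0919, against −0.0610 and −0.0919 with TMM. The small subunit median was −0.104 with DESeq2, −0.0598 with cyclic loess, −0.0758 with at least 10 counts in every library and −0.148 by structure. Leaving out each library, it ranged from −0.152 to −0.0512 and the large subunit median from −0.0827 to −0.0159. Members lower in every Piezo1 cKO library, 13 with TMM, numbered 6 with library totals, beside 4.97% of all genes. Their number was 10 with cyclic loess beside 7.33%, and 13 to 22 without a library beside 11.9% to 15.8%. The 22 were found without Piezo1 cKO 1. Members higher in every Piezo1 cKO library, 1 with TMM, numbered 4 with library totals and 1 with cyclic loess. Without a library they numbered 2 to 7, beside 1048 to 1240 of all genes, where TMM with every library gave 701. All alternatives for these counts were chosen after seeing the data.

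Of the values of named members under alternatives, 389 kept their direction and 14 reversed, and the cause was not tested. Library totals gave 0.0341 for Mrpl12 and 0.0028 for Mrpl45. Cyclic loess gave 0.0750 for Mrpl12, 0.0012 for Mrpl45, 0.0035 for Mrps6 and −0.0529 for Mrpl22. The other reversals came from leaving out a library: Mrpl12 ranged from −0.114 to 0.0081 (wild type 2 left out), Mrpl45 from −0.118 to 0.0165 (wild type 2), Mrps6 from −0.311 to 0.0822 (wild type 1), Mrpl22 from −0.307 (Piezo1 cKO 2) to 0.242, Mrpl23 from −0.142 to 0.0420 (wild type 3) and Mrpl58 from −0.0132 (Piezo1 cKO 2) to 0.191. Mrps30 ranged from −0.0488 (Piezo1 cKO 1) to 0.0927 and was −0.0093 without wild type 3.

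No pairing by the shared library numbers was seen in the values, and the labels do not say whether same-numbered libraries were prepared together. Deviations of same-numbered libraries correlated at −0.14, −0.20 and 0.01 for numbers 1 to 3. With the number as a replicate block, 46 genes and no member were called, edgeR gave Mrps5 an adjusted p of 0.287, and the medians were −0.06 for the large and −0.09 for the small subunit. At 726378 to 931168 counts per library, members at under 30 counts in most libraries, such as Mrpl22, Mrpl24 and Mrps36, have intervals of over 0.5 to either side, so a difference within them was not detectable at this depth.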
